A study of Mus musculus with 11 samples.

Results

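The 10 genes described here take up choline, build phosphatidylcholine and phosphatidylethanolamine from it or beside it, or encode flavin-containing monooxygenases. They are Slc44a1 and Slc44a2, Chka and Chkb, Pcyt1a, Pcyt2, Cept1, Pemt, Fmo1 and Fmo2. They were chosen by name, with earlier results of these data known, and all 10 are among the 12787 genes listed for these libraries. RNA was sequenced from the gonadal white adipose tissue of male C57Bl6/J mice that had eaten a high fat diet (HFD, 60% of energy as fat) for 20 weeks. In 5 mice the diet held no drug (HFD), and in 6 mice it held 0.06% w/w iodomethylcholine (HFD + IMC), a choline analogue that blocks CutC, the enzyme with which gut bacteria cleave choline to trimethylamine. Both groups ate the high fat diet, and 1 further HFD mouse was dropped by the submitters for library quality. Another cohort kept on these diets for 20 weeks began them at 6 weeks of age, but the starting age of the sequenced mice and the time of day at necropsy are not given in the sources used here. Each library is 1 mouse, and the comparison addresses what the inhibitor did to adipose gene expression under the high fat diet.

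Phosphatidylcholine is the main phospholipid of cell membranes and of the monolayer around lipid droplets. Most cells make it by the CDP-choline branch of the Kennedy pathway, in which choline is taken up, phosphorylated by a choline kinase, activated with CTP and joined to diacylglycerol; a parallel branch makes phosphatidylethanolamine, and PEMT, best known from liver, methylates that lipid to phosphatidylcholine. Flavin-containing monooxygenases oxidize nitrogen and sulfur in small molecules.

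Of the 10 genes, Pemt, Fmo1 and Slc44a1 were higher and Cept1 and Slc44a2 were lower in HFD + IMC, and the other 5 did not pass the test (limma on log2 CPM, read counts scaled by the upper quartile of each library, with Benjamini-Hochberg adjustment over all listed genes, threshold 0.05). The changes were small, from a fold of 0.823 for Cept1 to 1.52 for Pemt. The 5 calls have to be read against the whole table, in which 40.9% of genes passed the same test, 20.0% higher and 21.0% lower. For Pemt, Cept1 and Slc44a2 the mice of the groups did not overlap, which was so for 23.1% of all genes. The median absolute log2 fold change was 0.20 over the 10 genes and 0.17 over all listed genes. As a set, then, they were called about as often as other genes, and what follows concerns the single genes and how they moved against each other.

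The libraries held 22320022 to 25155366 reads on listed genes. In these bulk samples, fewer cells of a type and less RNA per cell cannot be told apart. Levels of cell type markers moved with the groups. Of 12 adipocyte markers 11 were higher in HFD + IMC, with a summed level of 19537 to 24282 CPM in HFD and 30021 to 34975 CPM in HFD + IMC. Of 12 macrophage markers 10 were lower, with sums of 12328 to 16625 and 6551 to 10442 CPM, and all 6 mast cell markers were lower, with sums of 494 to 1128 and 158 to 318 CPM. Progenitor and fibroblast markers were lower for 6 of 10 genes, endothelial markers higher for 2 of 8 and mesothelial markers lower for 1 of 5 listed. Of 8 skeletal muscle markers 2 were listed, and both were higher, with sums of 12.2 to 17.4 and 29.8 to 55.7 CPM. The part of these shifts in the results on the 10 genes was not tested. Of 8 lymphocyte markers 1 was listed and did not pass; Cd3e, Cd4 and Cd8a and all 6 epididymal markers were not among the listed genes, which had to reach 1 CPM in at least 1 library. The labelled tissue held its defining marker, Adipoq, at a mean of 9.74 log2 CPM in HFD and 10.91 in HFD + IMC.

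**Figure D1:**
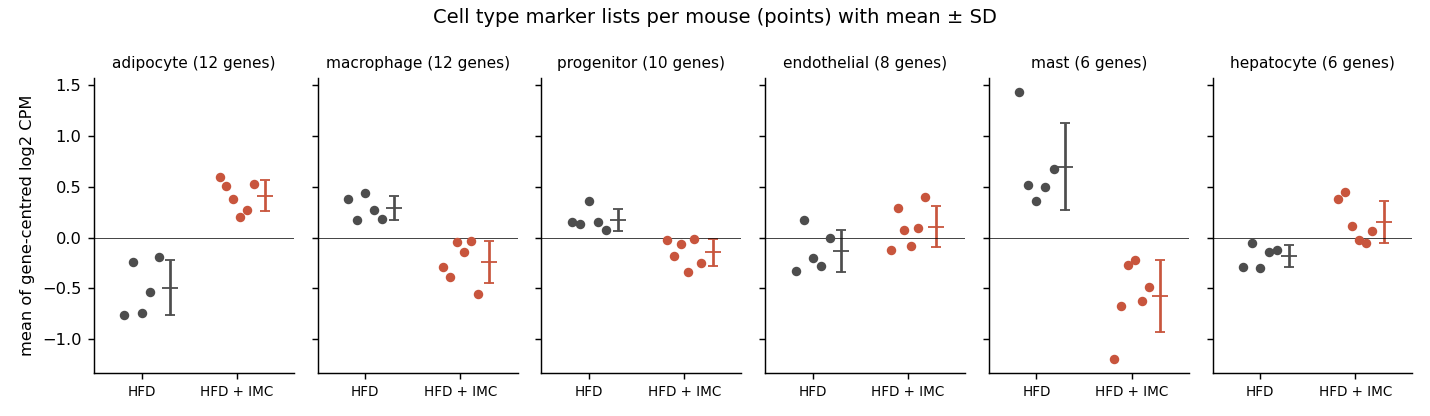
Level of 6 marker lists in each mouse, as the mean over a list's genes of log2 CPM centred on each gene's mean over the 11 mice. Points are mice in replicate order (HFD n = 5, HFD + IMC n = 6) and bars are mean ± SD. Adipocyte markers lie higher and macrophage, progenitor and mast cell markers lower in HFD + IMC with no overlap between groups, hepatocyte markers all but touch, and endothelial markers overlap.

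The sequences upstream of 3 of the genes that passed the test are shown. The choline transporters were taken because they were called in opposite directions, and Pemt because it changed most. Each is the 250 bases before 1 annotated transcription start of the gene in RefSeq (GRCm38.p6), read 5′ to 3′ on the gene's strand, with the start lying just after the last base. Genes can have several starts, and the one used for Pemt lies inside the gene, downstream of its outermost 5′ end, while the Slc44a1 window reaches a few bases into the annotated span of that gene. Capitals mark the GC box, GGGCGG or its reverse complement CCGCCC.
Slc44a1, chr4:53440163-53440412, plus strand: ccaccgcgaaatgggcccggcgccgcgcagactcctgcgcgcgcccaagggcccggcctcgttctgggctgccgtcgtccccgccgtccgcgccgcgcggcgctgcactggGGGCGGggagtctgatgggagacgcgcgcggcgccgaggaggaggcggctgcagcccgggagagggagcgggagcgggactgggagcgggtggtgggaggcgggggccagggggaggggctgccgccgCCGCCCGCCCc
Slc44a2, chr9:21320469-21320718, plus strand: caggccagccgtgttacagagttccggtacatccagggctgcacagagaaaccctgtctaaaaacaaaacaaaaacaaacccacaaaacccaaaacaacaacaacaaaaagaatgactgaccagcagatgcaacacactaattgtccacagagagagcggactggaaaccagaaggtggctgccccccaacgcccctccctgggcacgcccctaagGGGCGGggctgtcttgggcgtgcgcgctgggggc
Pemt, chr11:60040189-60040438, minus strand: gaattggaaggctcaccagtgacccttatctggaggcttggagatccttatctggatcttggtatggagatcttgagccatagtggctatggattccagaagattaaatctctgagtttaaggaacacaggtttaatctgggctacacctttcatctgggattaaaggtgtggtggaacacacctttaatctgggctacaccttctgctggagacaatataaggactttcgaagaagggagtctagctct

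Slc44a1 and Slc44a2 both have a GC box here, Slc44a1 with 3 matches beginning 139, 11 and 7 bases before the start (the last 2 overlap) and Slc44a2 with 1 beginning 34 bases before it. Pemt has no match in the window shown. Across 32851 promoters of the same length, 32.7% hold a GC box on either strand. The windows also differ in base composition, with 81.2% G and C for Slc44a1, 55.6% for Slc44a2 and 44.8% for Pemt, against a median of 52.4% over all promoters. None of the 3 windows holds the E-box CACGTG, the nuclear receptor hexamer AGGTCA or the TATA box TATAAA, which occur on either strand in 6.02%, 14.0% and 12.4% of all promoters. Letters in a window say nothing of whether a factor binds there. Promoter entries for Fmo1 and Pcyt2 were not analysed here.

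Choline enters the cell first. Slc44a1 (chr4:53440387-53622478, plus strand; mm10, as all positions below) encodes a choline transporter of the plasma membrane and mitochondria, and its paralogue Slc44a2 (chr9:21320719-21355028, plus strand) a related choline transporter-like protein. Slc44a1 stood at 6.01, 6.02, 6.06, 5.96 and 5.89 log2 CPM in HFD mice 1 to 5 and at 6.20, 6.20, 6.04, 6.09, 6.25 and 6.04 in HFD + IMC mice 1 to 6. Of the 6 treated mice 4 lay above every HFD mouse. The log2 fold change was 0.15 (SE 0.05, 95% interval 0.04 to 0.26, limma adjusted p = 0.0315). This call is fragile, since the adjusted p was 0.0761 with total-count scaling and rose to as much as 0.0727 when 1 mouse was left out, with the call lost for HFD mice 1, 4 and 5 and HFD + IMC mice 1, 2 and 5.

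Slc44a2 went the other way. It stood at 6.40, 6.33, 6.34, 6.36 and 6.27 log2 CPM in HFD and at 6.07, 6.26, 6.22, 5.98, 6.14 and 5.89 in HFD + IMC. Every treated mouse was below every HFD mouse, though the nearest of them, at 6.26 and 6.27, almost touched. This was a fold of 0.841 (log2 fold change -0.25, SE 0.06, limma adjusted p = 0.00749).

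Whether the transporters moved unequally was tested within each mouse as the difference in log2 CPM between them. Gene length and library scaling cancel from this difference when groups are compared. A shift of it can come from either transporter alone, and the rise of Slc44a1 rests on the fragile call above. Slc44a1 minus Slc44a2 was -0.35 ± 0.05 (SD, n = 5) in HFD and 0.05 ± 0.13 (SD, n = 6) in HFD + IMC, with ranges of -0.41 to -0.28 and -0.17 to 0.15. The shift of 0.40 passed a two-sided exact permutation test on the absolute difference of means (p = 0.00433, 0.0108 after adjustment over the 5 pairs compared), where 462 splits of the mice allow no p below 0.00216. The ranges did not meet. All 5 pairs were chosen with earlier results of these data known.

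**Figure D2:**
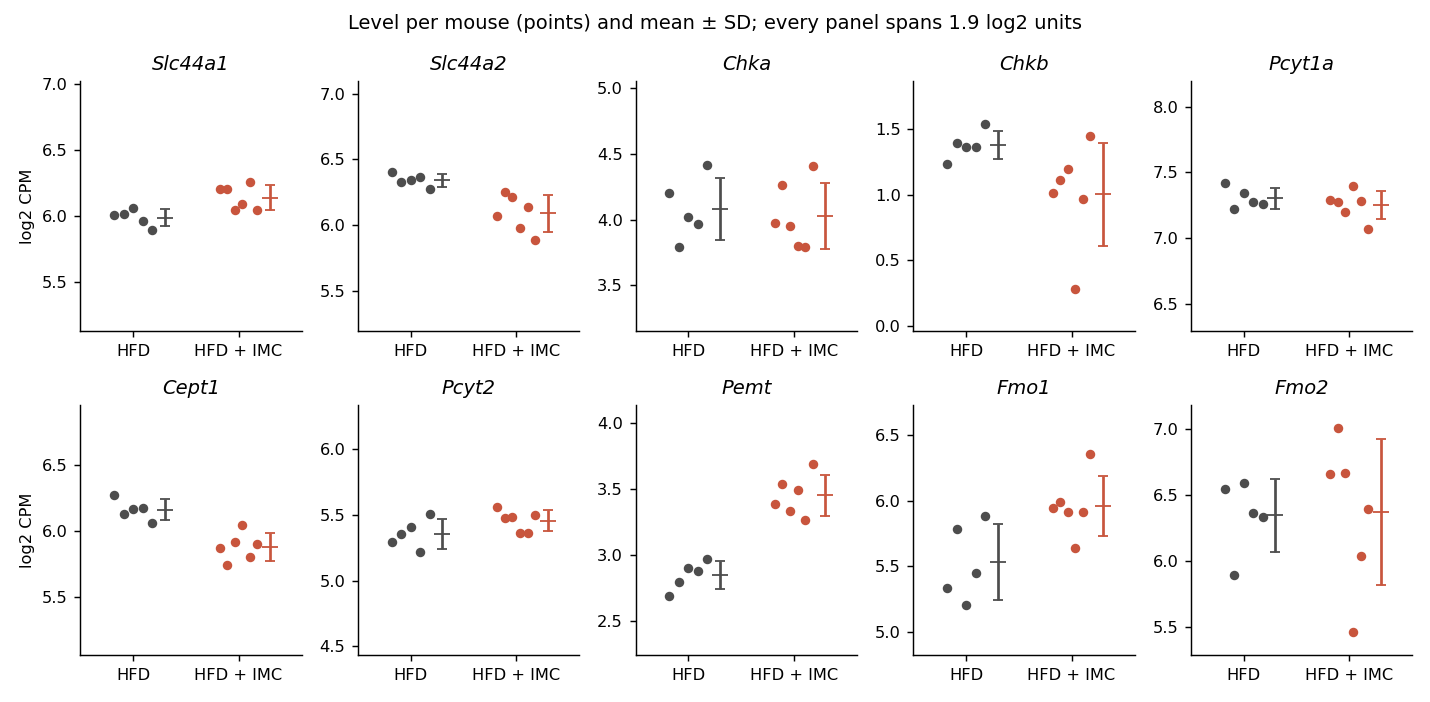
Level of each of the 10 genes in every mouse, in log2 CPM. Points are mice in replicate order (HFD n = 5, HFD + IMC n = 6), bars are mean ± SD, and each panel spans the same number of log2 units, so vertical distances can be compared between panels. Pemt separates the groups most widely, Slc44a2 and Cept1 separate them narrowly, and Fmo2 has its widest spread inside HFD + IMC.

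The remaining listed genes of choline transport were all higher in HFD + IMC (4 of 4), with larger fold changes than that of Slc44a1. Slc5a7, the high-affinity choline transporter best known from cholinergic nerve endings, stood at 6.59 ± 0.24 log2 CPM (SD, n = 5) in HFD and 7.68 ± 0.24 (SD, n = 6) in HFD + IMC. Slc22a3, an organic cation transporter of wide specificity, had a log2 fold change of 1.14 (SE 0.12, limma adjusted p = 3.50e-05). Slc44a3 rose by 0.98 and Slc22a2, another organic cation transporter, by 1.09, the latter from as few as 22 reads in a library. Slc44a2 was thus the 1 gene of the 6 listed in this group that fell. The groups did not overlap for Slc5a7, Slc22a3 and Slc22a2, as they did for Slc44a3, whose lowest treated mouse was at 2.71 and highest HFD mouse at 2.77 log2 CPM.

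Choline kinases phosphorylate choline and so trap it in the cell. Chka (chr19:3851585-3894369, plus strand) ranged from 3.79 to 4.42 log2 CPM in HFD with a median of 4.02, and from 3.79 to 4.40 in HFD + IMC with a median of 3.96. The ranges lay almost on top of each other. The log2 fold change of -0.05 had a 95% interval of -0.33 to 0.23, or a fold of 0.794 to 1.17 (limma adjusted p = 0.789).

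Chkb (chr15:89426349-89429927, minus strand), the isoform whose loss causes muscle disease in mice, was the most weakly expressed of the 10 genes. It stood at 1.23, 1.39, 1.36, 1.36 and 1.54 log2 CPM in HFD and at 1.01, 1.11, 1.20, 0.29, 0.97 and 1.45 in HFD + IMC. Of the 6 treated mice 5 lay below every HFD mouse, and HFD + IMC mouse 6 lay among them. The log2 fold change was -0.37 with a 95% interval of -0.76 to 0.01 and missed the threshold (SE 0.18, limma adjusted p = 0.113). Without HFD + IMC mouse 4, the lowest, it was -0.23 and so smaller than the change of Cept1, which was -0.32 in that fit. These values rest on 30 to 68 reads a library, and at 30 reads counting error alone is 0.26 on the log2 scale. In GENCODE, Chkb also shares 3337 bases with Gm44502 on its own strand, so reads of the pair cannot be told apart.

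The kinases were not shown to move apart. Chka minus Chkb was 2.70 ± 0.23 (SD, n = 5) in HFD and 3.03 ± 0.28 (SD, n = 6) in HFD + IMC, and the shift of 0.32 gave an exact permutation p of 0.0563 (0.0938 adjusted over the 5 pairs).

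Pcyt1a (chr16:32430921-32475065, plus strand) encodes the enzyme that makes CDP-choline and usually sets the rate of the branch. It was among the well expressed genes of the tissue, with 91.0% of listed genes at a lower mean log2 CPM. Its values were 7.42, 7.22, 7.34, 7.28 and 7.26 log2 CPM in HFD, and 7.07 to 7.39 with a median of 7.28 in HFD + IMC. The groups overlapped, with 2 treated mice below every HFD mouse and none above. The log2 fold change was -0.05 with a 95% interval of -0.18 to 0.07, or a fold of 0.885 to 1.05 (limma adjusted p = 0.495). Its paralogue Pcyt1b was at 1.71 and 1.74 log2 CPM and did not pass either (limma adjusted p = 0.925).

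The last step joins CDP-choline to diacylglycerol, and its enzymes were called in opposite directions. Cept1 (chr3:106502260-106547802, minus strand), which accepts both CDP-choline and CDP-ethanolamine, stood at 6.28, 6.13, 6.17, 6.18 and 6.06 log2 CPM in HFD and at 5.87, 5.75, 5.92, 6.05, 5.81 and 5.90 in HFD + IMC. The groups did not overlap, with the nearest mice at 6.06 and 6.05. The fold was 0.823 (log2 fold change -0.28, SE 0.06, 95% interval -0.40 to -0.16, limma adjusted p = 0.00196). Chpt1, which accepts CDP-choline alone, rose from 8.80 ± 0.22 log2 CPM (SD, n = 5) in HFD to 9.58 ± 0.10 (SD, n = 6) (limma adjusted p = 6.07e-05). Chpt1 minus Cept1 within a mouse ran from 2.30 to 2.96 in HFD and from 3.54 to 3.89 in HFD + IMC, a difference that was chosen after the values were seen and is given without a test. Cept1 shares 771 bases with Dennd2d on the opposite strand, which was at 2.65 and 2.33 log2 CPM and did not pass the test (limma adjusted p = 0.0812). The strand setting of the deposited counts is not given in the sources used here.

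In the ethanolamine branch, Pcyt2 (chr11:120610062-120617947, minus strand) makes CDP-ethanolamine. Its HFD values were 5.29, 5.35, 5.41, 5.22 and 5.51 log2 CPM, and its HFD + IMC values ran from 5.36 to 5.55 with a median of 5.48. The treated mice lay from the middle of the HFD range upwards, and 1 was above it. Its log2 fold change of 0.10 (95% interval -0.03 to 0.23) missed the threshold with a limma adjusted p of 0.189. Ept1, the ethanolamine phosphotransferase now called Selenoi, passed narrowly at a log2 fold change of 0.16 (limma adjusted p = 0.0271), a call lost with total-count scaling at 0.0601, or without any of HFD mice 1, 4 and 5 and HFD + IMC mice 1, 2 and 5, at 0.0521 to 0.0659. Etnk1, an ethanolamine kinase, had a log2 fold change of 0.13 and did not pass. Phykpl, counted in this list though not an enzyme of the branch, had 0.21 and did not pass either. The CTP-using enzymes of the branches were not shown to move apart, since Pcyt1a minus Pcyt2 went from 1.95 ± 0.15 (SD, n = 5) to 1.79 ± 0.16 (SD, n = 6) with an exact permutation p of 0.143 (0.179 adjusted over the 5 pairs).

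Pemt (chr11:59970614-60046561, minus strand), the methyltransferase that turns phosphatidylethanolamine into phosphatidylcholine without using free choline, had the largest change of the 10 genes. It stood at 2.69, 2.80, 2.90, 2.88 and 2.97 log2 CPM in HFD mice and at 3.39, 3.54, 3.33, 3.49, 3.26 and 3.69 in HFD + IMC mice. The groups did not overlap, and the lowest treated mouse, at 3.26, was well clear of the highest HFD mouse, at 2.97. The fold was 1.52 (95% interval 1.33 to 1.74, log2 fold change 0.60, SE 0.09, limma adjusted p = 0.000241). With 1 mouse left out the log2 fold change lay between 0.56 and 0.64 and the call held in all 11 fits. The level was low, from 143 to 314 reads a library, and 22.1% of listed genes had a lower mean.

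Pemt was also set against Pcyt1a, of the CDP-choline branch, inside each mouse. Pemt minus Pcyt1a was -4.45 ± 0.16 (SD, n = 5) in HFD and -3.80 ± 0.23 (SD, n = 6) in HFD + IMC. The HFD mice ran from -4.73 to -4.29 and the treated mice from -4.01 to -3.38. The shift of 0.66 had the smallest p that the exact permutation test can give, 0.00216 (0.0108 adjusted over the 5 pairs). Like the other pairs, this one was chosen with earlier results of these data known, so its p is not that of a pair fixed beforehand. This pair speaks of Pcyt1a alone, since Chpt1 of the same branch rose by 0.78, more than Pemt. The summed level of the branch's 6 genes was 640 to 782 CPM in HFD and 938 to 1100 CPM in HFD + IMC. That sum follows mainly Chpt1, the most abundant of them at 8.80 and 9.58 log2 CPM. Of the 6 genes 1 was higher, 1 was lower and 4 did not pass, with a median log2 fold change of -0.05. Among the other genes that supply phosphatidylethanolamine by way of phosphatidylserine, Ptdss1 and Ptdss2, the phosphatidylserine synthases, did not pass, and Pisd, the decarboxylase, was lower by a log2 fold change of -0.12 with a limma adjusted p of 0.0461 that was lost when any of 8 mice was left out and with 2 other settings. Since Pemt is best known from liver, hepatocyte markers were read beside it. Alb was at 6.46 and 6.60 log2 CPM and did not pass (limma adjusted p = 0.121), while 2 of 6 markers, Serpina1a and Cyp2e1, were higher. The summed level of the list was 130 to 169 CPM in HFD and 159 to 260 CPM in HFD + IMC, which overlap, and the part of that list in the rise of Pemt was not tested.

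**Figure D3:**
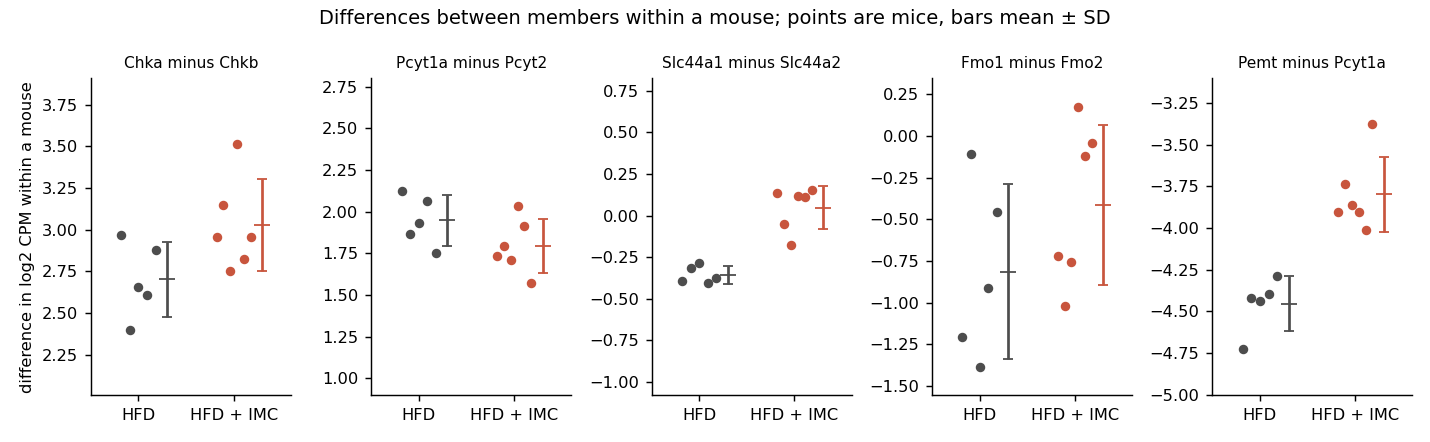
Difference in log2 CPM between genes of a pair within each mouse, for the 5 pairs compared. Points are mice in replicate order (HFD n = 5, HFD + IMC n = 6), bars are mean ± SD, and all panels span the same range. Slc44a1 minus Slc44a2 and Pemt minus Pcyt1a separate the groups, and the ranges of the other 3 pairs overlap.

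Fmo1 (chr1:162829561-162866610, minus strand) and Fmo2 (chr1:162874317-162898758, minus strand) encode flavin-containing monooxygenases, Fmo2 being best known from lung. Fmo1 stood at 5.34, 5.79, 5.21, 5.45 and 5.88 log2 CPM in HFD and at 5.94, 5.99, 5.91, 5.64, 5.92 and 6.35 in HFD + IMC. Of the treated mice 5 of 6 lay above every HFD mouse, and HFD + IMC mouse 4 lay between the lower and the upper HFD mice. The fold was 1.34 (95% interval 1.10 to 1.64, log2 fold change 0.43, SE 0.13, limma adjusted p = 0.0213). Without HFD mouse 1 the adjusted p was 0.0568 and without HFD mouse 3 it was 0.0607, so the call is lost without either of the 2 HFD mice with the lowest values.

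Fmo2 varied widely, and among the treated mice more than any other of the 10 genes (SD 0.55 on the log2 scale). Its values were 6.55, 5.90, 6.59, 6.36 and 6.33 log2 CPM in HFD and 6.66, 7.01, 6.67, 5.46, 6.03 and 6.39 in HFD + IMC. Both the highest and the lowest mouse were treated ones. Its log2 fold change of 0.03 had a wide 95% interval, from -0.46 to 0.52 (limma adjusted p = 0.939), so neither a fold of 0.725 nor one of 1.43 lies outside what these mice allow. The difference between the paralogues was not shown to change, with Fmo1 minus Fmo2 at -0.81 ± 0.53 (SD, n = 5) and -0.41 ± 0.48 (SD, n = 6) and an exact permutation p of 0.214. Of other genes of the family Fmo5 was listed, at 4.96 and 5.08 log2 CPM, and it did not pass (limma adjusted p = 0.157). Fmo4, Fmo6, Fmo9 and the trimethylamine receptor Taar5 were not among the listed genes.

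**Figure D4:**
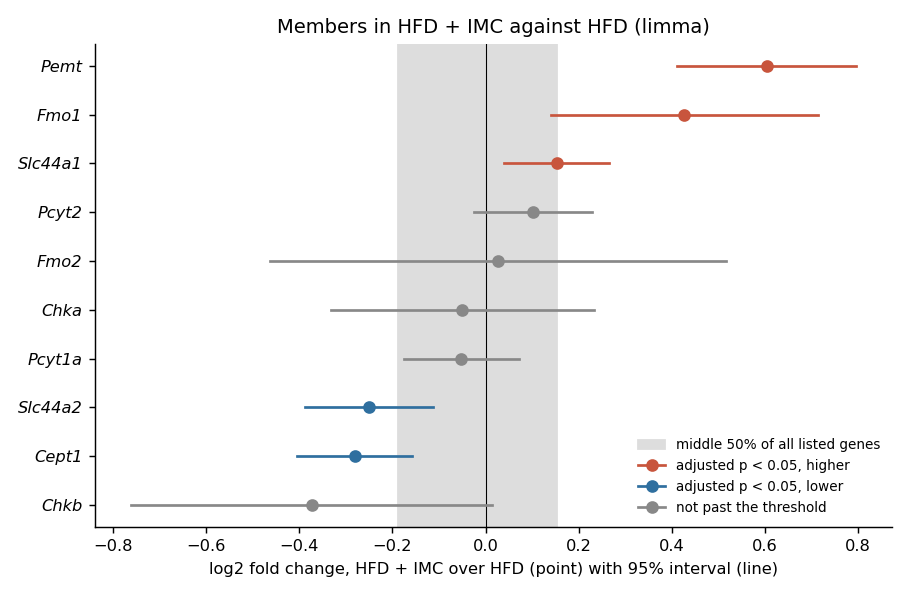
Log2 fold change of the 10 genes, HFD + IMC (n = 6) over HFD (n = 5), with the 95% interval from limma. Colour gives the call and the grey band holds the middle 50% of all listed genes, from -0.19 to 0.15. Pemt, Fmo1, Cept1, Slc44a2 and Chkb have point estimates outside the band, and the interval of Chkb reaches 0.

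Levels can be compared between the genes only per length. With CPM divided by the total exon length, Pcyt1a (4.41 and 4.36 log2 CPM per kb in HFD and HFD + IMC) and Cept1 (4.52 and 4.24) were highest, and their order differed between the groups. Cept1 was above Pcyt1a in 5 of 5 HFD mice, and Pcyt1a was above Cept1 in 5 of 6 HFD + IMC mice. With the longest transcript as the length, Pcyt1a was above Cept1 in 11 of 11 mice, by 0.50 ± 0.15 (SD), and Cept1 was above Pcyt2 in 5 of 11, so the order of these genes depends on the length used. By exon length Fmo2, Pcyt2, Slc44a1, Fmo1 and Slc44a2 followed. Of these, Pcyt2 was above Slc44a1 in 6 of 11 mice and Slc44a1 above Fmo1 in 8, and Fmo1 was above Slc44a2 in 1 of 5 HFD and 6 of 6 HFD + IMC mice. The order of these genes also changed with the longest transcript. Pemt, Chka and Chkb were the lowest in that order under both lengths, each above the next in 11 of 11 mice, at 1.77 and 2.38, at 0.49 and 0.44, and at -0.24 and -0.61 log2 CPM per kb of exon.

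The wider pathway was read from 8 lists with 72 gene symbols, of which 50 were listed and 40 were not among the 10 genes. Of these 40 genes 14 were higher and 12 lower, 65% against 40.9% of all listed genes. The groups did not overlap for 17 of the 40, and for 23.1% of all listed genes. The lists were chosen with earlier results of these data known, so these shares are no test of the pathway. The median log2 fold change of the 40 genes was 0.06, against -0.03 over all genes, so the lists held changes in both directions. In choline oxidation and cleavage of choline esters 3 of 4 listed genes were higher. Chdh, the mitochondrial choline dehydrogenase on the way to betaine, had 4.45 ± 0.44 log2 CPM (SD, n = 5) in HFD against 5.47 ± 0.52 (SD, n = 6) under IMC. Bche, which encodes butyrylcholinesterase, rose by 1.02 and Sardh, sarcosine dehydrogenase further down the betaine route, by 0.37, while Aldh7a1 did not pass.

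Among 18 listed genes that release choline or fatty acids from phosphatidylcholine, 4 were higher and 8 lower. The 2 with the largest increases are abundant in adipocytes. Pla2g16, the adipocyte phospholipase A2, had 7.99 ± 0.31 log2 CPM (SD, n = 5) in HFD against 8.97 ± 0.20 (SD, n = 6) under IMC, and Enpp2, which encodes the secreted lysophospholipase D autotaxin, rose by 0.84. Gdpd1, a glycerophosphodiesterase-domain enzyme, fell by 0.67 and the phospholipase D gene Pld2 by 0.30. Of genes that move phosphatidylcholine between membranes 3 of 5 were lower. Pctp, the phosphatidylcholine transfer protein, fell by 0.50 and Abcb4, the transporter that exports phosphatidylcholine into bile in liver, by 0.66. Abcb1b fell by 0.38, with the reservation that reads can be split between it and its near-identical copy Abcb1a, and Stard7, which carries phosphatidylcholine to mitochondria, rose by 0.22. The groups did not overlap for 2 of 4 listed genes of oxidation and ester cleavage, 7 of 18 of breakdown and 4 of 5 of transfer. Over all listed genes the share was 23.1%. Adipocyte markers as a list rose and macrophage markers fell over the same mice, as given above, and their part in these changes was not tested.

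**Figure D5:**
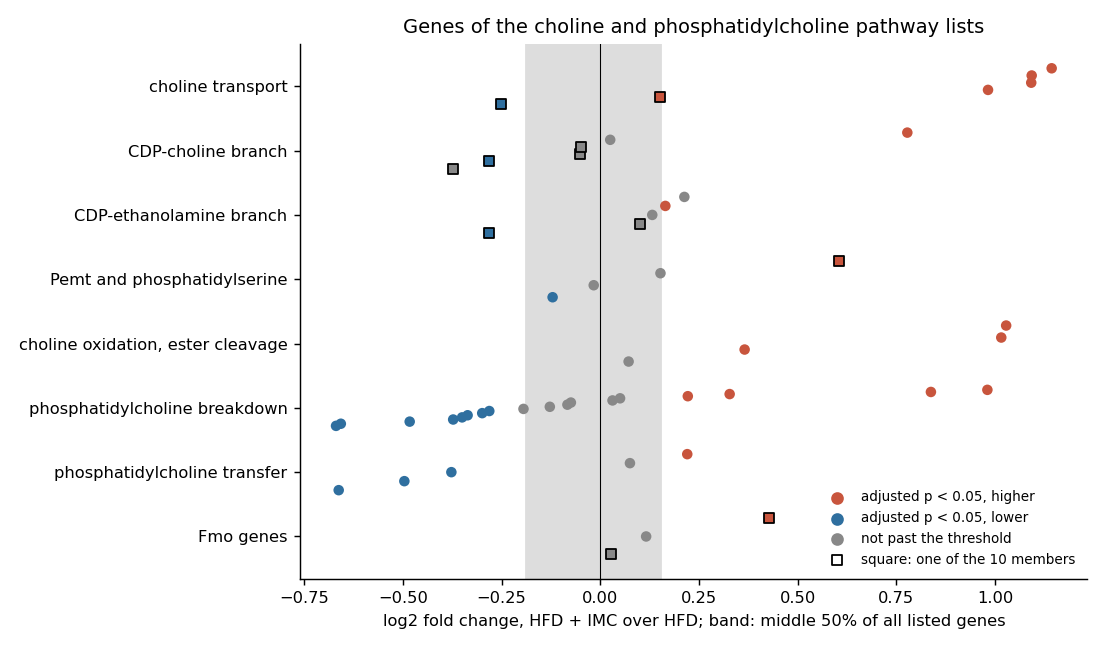
Log2 fold change, HFD + IMC (n = 6) over HFD (n = 5), of every listed gene in the 8 pathway lists. Squares with a black edge are the 10 genes, circles the other listed genes, colour gives the call, and the grey band holds the middle 50% of all listed genes; Cept1 stands in both branches. Choline transport holds the 4 genes near 1 on the right together with Slc44a2 on the left, and phosphatidylcholine breakdown spreads to both sides.

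The genes whose pattern over the 11 mice was nearest to that of the 3 members with the largest fold changes were found by the root mean square distance between log2 CPM values centred on each gene's mean. Nearest to Pemt were Tmem120a at a distance of 0.08, Ttc28 at 0.09 and Rbm28 at 0.09, where Pemt itself deviated by 0.33 from its mean. Nearest to Fmo1 were Kctd15 at 0.10, Gpihbp1 at 0.10 and Gatsl3 at 0.11. Chkb is counted among the 3 with all mice in the fit, and would give way to Cept1 without HFD + IMC mouse 4. Nearest to Chkb were Sparcl1 at 0.13, Ndufa4l2 at 0.14 and Dtx3 at 0.14, and here the distances were larger. The group difference enters these distances, and all values come from the same libraries and scaling.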

How the data were processed

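Gonadal white adipose RNA of 11 male mice was sequenced from stranded mRNA libraries. Per the labels and the study's methods, the authors trimmed reads with Trim Galore, checked them with FastQC, aligned and counted them with STAR on mm10, removed genes under 1 CPM in every sample and scaled by upper quartile. The deposited values used here are log2 CPM per gene and mouse. Other deposited columns hold the authors' own comparison (fold changes and p-values) and were not used. Whole reads were recovered from the log2 values (tolerance 0.05 reads; fewest reads for any gene, 5), which gives the depths and read counts above, and gene values include a constant of 0.25 reads on average.

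Groups were compared with limma 3.58.1 in R 4.3.3 (lmFit, eBayes with trend) over all 12787 genes, without covariates, and pairs of genes by an exact permutation test over mice. Scripts were tested on simulated data. The 10 genes, the lists and the pairs were chosen with earlier results of these data known. Named beyond the 10 are up to 4 genes with the smallest p in each pathway list, the 3 genes nearest in pattern to the 3 members with the largest changes, and a few markers. Exon lengths and overlaps come from GENCODE vM21, positions and upstream sequences from RefSeq (GRCm38.p6). Alternatives were other variance models, voom on recovered reads, 2 other scalings, 2 added reads, a filter at 0 log2 CPM and leaving out each mouse. The limma p-values set the difference between groups against the spread between mice, and the exact p-values set it against all splits of the mice. Counting error of the reads is part of that spread.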

Additional observations from a re-analysis of the deposited data

Results flagged for a closer look

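Of 110 groups of mice tested for a mouse far from the others (each listed pathway gene and each pair difference, in each group), 3 had one, where chance gives about 1 in 20. Ptdss2 was at 5.21 log2 CPM in HFD mouse 5 against 4.77 to 4.89 in the other HFD mice, and without that mouse Ptdss2 passed the test (limma adjusted p = 0.0176). Enpp6, a choline-releasing phosphodiesterase named here for this value, was at 1.56 log2 CPM in HFD mouse 5 against 2.03 to 2.16 in the others, and stayed lower in HFD + IMC with any mouse left out (limma adjusted p 0.00312 to 0.0357). Fmo5 was at 4.88 log2 CPM in HFD + IMC mouse 4 against 5.07 to 5.18 in the others, and without that mouse it passed (limma adjusted p = 0.0398).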

How the results depend on the processing

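Over 7 other fits and the 11 fits that each left out 1 mouse, none of the 10 genes lost or gained a call except Slc44a1 (lost in 7) and Fmo1 (lost in 2), with the values given above. The number of the 10 genes called lay between 3 and 5 when 1 mouse was left out, and was 3 without HFD mouse 1, where both of these calls were lost. The count over all listed genes lay between 4299 and 5125 in those fits against 5236 with all mice, and the count over the other pathway genes between 23 and 26. No call on a pair difference changed under any alternative run, and no called value reversed. Of the other named genes, Ept1 and Pisd lost their calls as given above, Pisd without the variance trend (adjusted p = 0.0647) and with median-of-ratios scaling (adjusted p = 0.0661). Pla2g4a lost its call without HFD mouse 1 (adjusted p = 0.0532). The median log2 fold change of all genes was -0.06 with total-count and -0.02 with median-of-ratios scaling. No paired analysis was possible because no mouse number occurs in both groups. Depth limits Slc22a2, Serpina1a, Chkb, Enpp6 and Pcyt1b among the genes named. Their fewest reads in a library were 22, 23, 30, 43 and 56.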

Other observations

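Lypla1 and Lypla2, paralogues that remove acyl groups from lysophospholipids and proteins, were called in opposite directions and were picked after their values were seen. Lypla1 stood at 6.45 ± 0.05 log2 CPM (SD, n = 5) in HFD and 6.67 ± 0.09 (SD, n = 6) in HFD + IMC, and Lypla2 at 6.14 ± 0.10 (SD, n = 5) and 5.76 ± 0.12 (SD, n = 6), with no overlap between groups for either. The difference between them was not tested.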
